A study of Mus musculus with 11 samples.

Results

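RNA levels of 9 cell cycle genes were read from sequencing of mouse embryonic stem cells: the D type cyclins Ccnd1, Ccnd2 and Ccnd3, the E type cyclins Ccne1 and Ccne2, cyclin A2 (Ccna2), the B type cyclins Ccnb1 and Ccnb2, and Cdkn1b, which encodes the inhibitor p27. They were chosen by gene symbol from the 55291 genes of the count table, and all 9 passed the filter on low counts that left 17904 genes for testing. The cells were feeder-free E14 cultures in serum medium with LIF, the GSK3 inhibitor CHIR99021 and a MEK inhibitor. In 2 separately targeted lines, 10E and 11D, the FACT subunit SPT16 carries a C-terminal V5 tag and an auxin-inducible degron, which lets indole-3-acetic acid (IAA) direct the protein to degradation. The groups used were tagged cells given 500 nM IAA for 24 hours (1 library of 10E and 2 of 11D), tagged cells given ethanol (EtOH, the solvent) for the same time (2 libraries of each line), and untagged cells given IAA (3 libraries). Each tagged line stands for 1 clone, and no untagged library given EtOH was analysed here.

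Cyclins are the regulatory partners of the cyclin-dependent kinases (CDKs), and the family is named for the waves of synthesis and destruction they go through in each cell cycle. In the textbook cycle, D type cyclins with CDK4 or CDK6 respond to growth signals and begin to phosphorylate RB, E type cyclins with CDK2 drive entry into S phase, cyclin A2 serves S phase and G2, and B type cyclins with CDK1 drive mitosis. p27 binds and restrains the CDK2 complexes. Mouse embryonic stem cells are known for a short G1 phase, for E type cyclin levels that vary little through the cycle and for low p27 levels, with D type cyclins low as well. The culture medium can change these traits. Whether they hold in the medium used here, with CHIR99021 and a MEK inhibitor, was not tested.

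Total counts per library ran between 3100127 and 13510163. The second 10E EtOH library and the first 11D EtOH library stood apart in the share of counts on CT010467.1, with 2.64% and 4.27%, against 0.129% to 1.58% in the others. The 8 embryonic stem cell markers (Pou5f1, Sox2, Nanog, Zfp42, Esrrb, Dppa5a, Fgf4 and Utf1) were all detected in every group, with summed levels of 1667 to 1829 CPM (counts scaled to a common library size) in tagged IAA, 4211 to 5276 in tagged EtOH and 4596 to 4817 in untagged IAA. The 5 markers of 2-cell-like cells summed to 25.1 to 61.0 CPM in tagged IAA, 12.0 to 29.4 in tagged EtOH and 8.79 to 13.0 in untagged IAA, with none at 0. The 5 neural markers summed to 77.9 to 106, 59.1 to 68.2 and 49.99 to 66.1 CPM in the same order of groups, and the 7 fibroblast markers to 15.8 to 19.7, 21.6 to 34.4 and 22.2 to 28.7, with 1, 1 and 3 of them at 0, and with the lists of trophectoderm and primitive endoderm markers at 12.8 CPM or less in every library. Such a sum can rest on 1 abundant gene. Of the 5 neural markers, 4, 3 and 3 stood at 1 CPM or more in the same order of groups. Of the 5 trophectoderm and the 5 primitive endoderm markers, 2 each did so in every group. The part of these cell types in the results was not tested. Supt16, which encodes SPT16, stood at 253 to 286 CPM in tagged IAA, 364 to 416 in tagged EtOH and 538 to 577 in untagged IAA, a check of its RNA and not of the protein that the degron removes. All CPM values carry TMM factors, which set the bulk of genes at equal level between libraries.

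Both B type cyclins were lower in IAA than in EtOH in each tagged line, and their promoters are printed for the CCAAT boxes they share. Cell cycle genes that peak in G2 and M are known to depend on CCAAT boxes, bound by NF-Y, and on the cell cycle genes homology region (CHR), bound by MuvB complexes, which hold B-MYB or the repressive DREAM proteins at different times. RefSeq windows (GRCm38.p6) from 250 bases before to 50 bases after the annotated start were at hand for 5 of the 9 genes, 6 windows in all, since Ccnd3 has 2 starts. The Ccnb1 window is chr13:100786437-100786736 on the minus strand, the Ccnb2 window chr9:70421505-70421804 on the minus strand, and the Ccne1 window, shown as an S phase cyclin beside them, chr7:38107441-38107740 on the minus strand. All read 5′ to 3′ along the gene, and capitals mark CCAAT boxes and CHR matches.
Ccnb1: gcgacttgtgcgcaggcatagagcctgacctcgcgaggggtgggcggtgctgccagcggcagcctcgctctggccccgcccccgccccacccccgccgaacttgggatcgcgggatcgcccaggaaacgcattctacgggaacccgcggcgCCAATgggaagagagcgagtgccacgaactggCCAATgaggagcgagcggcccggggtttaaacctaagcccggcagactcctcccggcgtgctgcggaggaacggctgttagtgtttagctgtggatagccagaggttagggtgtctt
Ccnb2: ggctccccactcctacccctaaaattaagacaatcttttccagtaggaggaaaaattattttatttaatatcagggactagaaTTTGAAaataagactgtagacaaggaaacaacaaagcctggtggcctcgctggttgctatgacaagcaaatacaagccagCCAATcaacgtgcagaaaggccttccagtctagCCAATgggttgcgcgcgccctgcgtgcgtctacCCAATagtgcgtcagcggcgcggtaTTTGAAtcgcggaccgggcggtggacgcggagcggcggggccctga
Ccne1: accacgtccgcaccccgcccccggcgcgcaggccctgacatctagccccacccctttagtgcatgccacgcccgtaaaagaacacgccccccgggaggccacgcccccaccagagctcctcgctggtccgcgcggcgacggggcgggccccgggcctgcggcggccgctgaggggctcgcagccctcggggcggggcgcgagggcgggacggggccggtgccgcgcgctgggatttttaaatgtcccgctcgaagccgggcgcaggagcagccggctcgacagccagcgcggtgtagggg

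Ccnb1 held no match to TTTGAA or TTCGAA, the only forms of the CHR searched for. TTTAAA, which stands in the printed Ccnb1 and Ccne1 windows, was not searched for, so other CHR forms may be missed. Ccnb1 held 2 CCAAT boxes, which start at -99 and -67 from the start site, a spacing of 32 bases. Ccnb2 held 3 at -87, -54 and -21, each 33 bases from the next, and 2 CHR matches that start at -167 and 5. Ccne1 held neither. SP1 boxes were found in each of the 6 windows, with 4 in Ccne1, 3 in Ccnb1 and 1 in Ccnb2. Both strands were searched for CCAAT, for the CHR as TTTGAA or TTCGAA, for the E2F site as TTTCCCGC, TTTCGCGC, TTTGCCGC or TTTGGCGC, for the SP1 box as GGGCGG and for TATAAA; none of these motifs contains another. Of 32851 mouse promoter windows of this length, 37.4% held at least 1 CCAAT box, 11.7% at least 2 and 3.37% at least 3, 19.2% held a CHR match and 2.54% at least 2, 35.7% an SP1 box, 2.26% an E2F match and 13.6% TATAAA. A pair of neighbouring CCAAT boxes on 1 strand, 31 to 34 bases apart (limits chosen around the spacings seen), occurred in 0.895% of the windows. The Cdkn1b window held 3 CCAAT boxes, at -161 and -35 and, on the other strand, at 46, and the second Ccnd3 window held 1 at -108. In the 6 windows no E2F or TATAAA letters were found, which says nothing of binding.

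**Figure D1:**
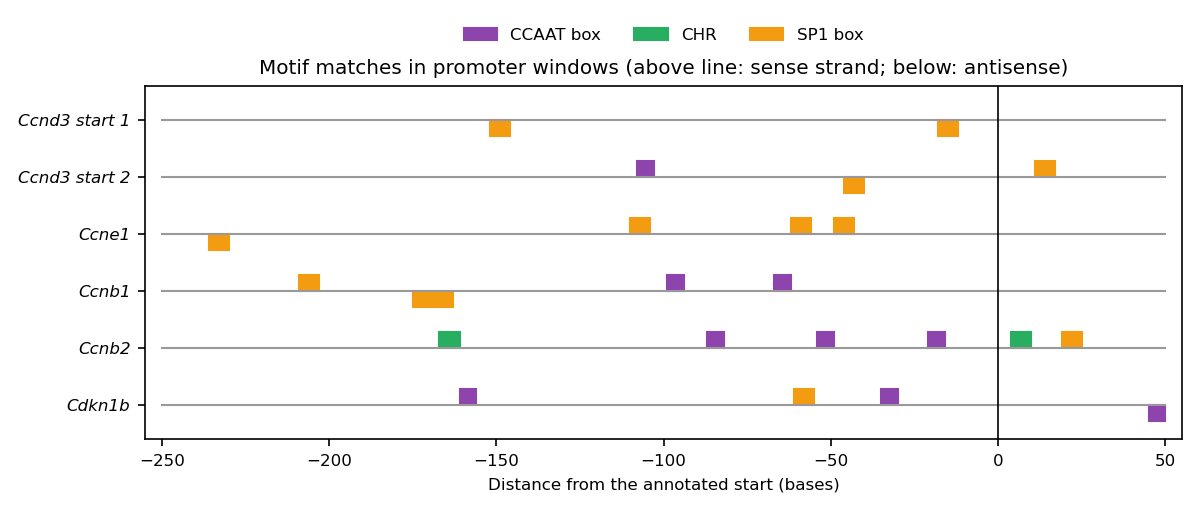
Motif matches in the 6 promoter windows, by distance from the annotated start in bases; boxes above a line lie on the gene's strand, those below on the other strand, with CCAAT boxes in purple, CHR matches in green and SP1 boxes in orange. CCAAT boxes 32 or 33 bases apart on the gene's strand are seen in Ccnb1 (2) and Ccnb2 (3). Matches to the CHR forms searched for, TTTGAA and TTCGAA, are seen in Ccnb2.

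In tagged cells, IAA was tested against EtOH with the line as a term (edgeR quasi-likelihood test, false discovery rate FDR under 0.05 over all genes tested). Of the 9 genes, Ccne2 rose and 6 fell, namely Ccnd1, Ccnd3, Ccna2, Ccnb1, Ccnb2 and Cdkn1b, while Ccnd2 and Ccne1 did not pass. Over all genes tested 57.4% passed, 29.3% as higher and 28.1% as lower, so that being called is common in this comparison. The groups did not overlap for 4 genes that were lower in every IAA library than in any EtOH library (Ccnd1, Ccnd3, Ccnb1 and Ccnb2; 24.8% of all genes did so), nor for Ccne2, higher in every IAA library (27.7% of all genes). These are bulk libraries, so fewer cells at a stage of the cycle and less RNA per cell cannot be told apart. Nothing in the labels says that replicates came from separate cultures, and the p-values measure the spread between these libraries.

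**Figure D2:**
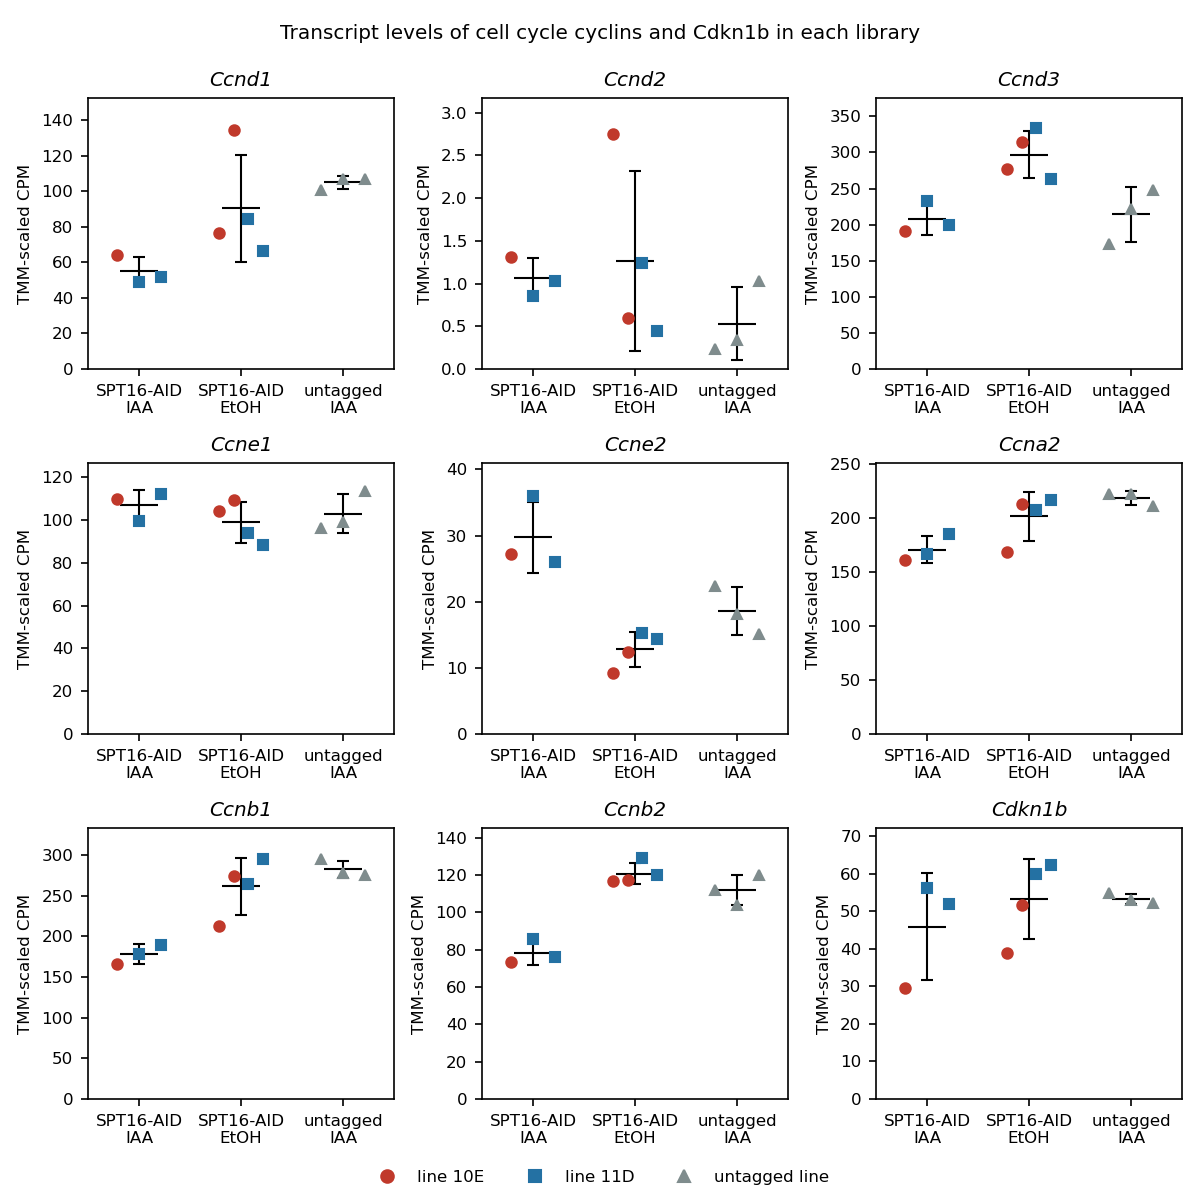
TMM-scaled CPM of each gene in each library (vertical axes, each from 0), with SPT16-AID IAA (n = 3), SPT16-AID EtOH (n = 4) and untagged IAA (n = 3) from left to right; bars give the mean and SD. Ccnb1 and Ccnb2 lie lower in all 3 tagged IAA libraries than in the other 7, and Ccne2 lies higher.

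Ccnd1 and Ccnd3, 2 of the 3 D type cyclins, fell, and Ccnd2 was near the limit of detection. Ccnd3 (chromosome 17, positions 47505051 to 47599691, plus strand, GENCODE M21 on mm10) had 192 CPM in the 10E IAA library and 233 and 199 in the 11D IAA libraries, against 277 and 314 in 10E EtOH and 333 and 264 in 11D EtOH. Every IAA library lay below every EtOH library, in both lines. The log2 fold change was -0.53 ± 0.10 (SE; FDR 0.000406), a percent change of -30.9. Cyclin D3 is best known from lymphoid precursors, and per exon length it had the highest mean level of the D type cyclins here in each group.

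Ccnd1 (chromosome 7, positions 144929931 to 144939925, minus strand) encodes cyclin D1, a target of growth factor and Wnt signalling. Its levels were 64.3 CPM in 10E IAA and 48.7 and 51.8 in 11D IAA, against 76.7 and 134 in 10E EtOH and 84.3 and 66.1 in 11D EtOH. The IAA libraries did not overlap the EtOH libraries, but the highest IAA library and the lowest EtOH library lay close together, and the second 10E EtOH library stood far above the other 3. Relative to EtOH, Ccnd1 changed by -0.63 ± 0.16 on the log2 scale (FDR 0.0028). The value was -0.44 without that second 10E EtOH library, -0.36 ± 0.11 (FDR 0.0175) without it and the first 11D EtOH library, and -0.56 with the call lost (FDR 0.0606) without the 10E IAA library. On the opposite strand LTO1 shares 1100 bases, 23.4% of the Ccnd1 exons, and LTO1 was higher in IAA (0.45 ± 0.15, FDR 0.0205). Whether the authors counted reads by strand is not given in the sources used here.

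Ccnd2 (chromosome 6, positions 127125162 to 127152193, minus strand) gave 6 reads in 10E IAA and 3 and 16 in 11D IAA, against 21 and 6 in 10E EtOH and 4 and 5 in 11D EtOH. Its levels of 0.855 to 1.32 CPM in IAA lay within the 0.45 to 2.75 CPM of EtOH, and the difference could not be resolved at this depth (0.18 ± 0.60, FDR 0.819).

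Of the E type cyclins, Ccne2 rose and Ccne1 did not pass. Ccne2 (chromosome 4, positions 11191351 to 11204779, plus strand) encodes cyclin E2 and was the only one of the 9 genes to rise with TMM factors. It had 27.2 CPM in 10E IAA and 35.9 and 26.1 in 11D IAA, against 9.17 and 12.45 in 10E EtOH and 15.3 and 14.3 in 11D EtOH. Every IAA library was above every EtOH library. Ccne2 changed by a log2 fold of 1.15 ± 0.17 (FDR 2.41e-05), 2.22-fold, the largest in size of the 9 genes, and it stayed between 1.05 and 1.32 when single libraries were left out. Ints8, a subunit gene of the Integrator complex, shares 609 bases on the opposite strand, 17.4% of the Ccne2 exons, and was higher too (106 CPM in IAA, 82.6 in EtOH; 0.33 ± 0.10, FDR 0.00896).

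Ccne1 (chromosome 7, positions 38097984 to 38107534, minus strand) encodes cyclin E1 and shares no exon with another gene. It had 110 CPM in 10E IAA and 99.5 and 112 in 11D IAA, against 104 and 109 in 10E EtOH and 93.7 and 88.3 in 11D EtOH. Within each line the IAA libraries lay above the EtOH libraries, in 10E by very little, and across lines the groups overlapped. The log2 fold change of 0.14 ± 0.09 did not pass (FDR 0.200). With library totals in place of TMM factors it was 0.48 and passed, on a scale on which the median of all genes was 0.36, against 0.03 with TMM.

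Cyclin A2 was called lower, but the call did not hold under many settings. Ccna2 (chromosome 3, positions 36564865 to 36572150, minus strand) had 161 CPM in 10E IAA and 166 and 185 in 11D IAA, against 168 and 213 in 10E EtOH and 207 and 217 in 11D EtOH. Its first 10E EtOH library lay among the IAA libraries. Its log2 fold change was -0.27 ± 0.10 (FDR 0.0257), with an FDR of 0.0635 by DESeq2 and of 0.0517 with median-of-ratios factors, and the call was lost in 5 of the 7 fits that left out 1 library. With library totals the value was 0.07, of opposite sign. Exosc9, an exosome subunit gene on the opposite strand, covers 510 bases or 12.5% of the Ccna2 exons and fell (25.04 CPM in IAA, 40.4 in EtOH; -0.68 ± 0.16, FDR 0.00184).

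Both B type cyclins fell, by similar amounts. Ccnb2 (chromosome 9, positions 70407692 to 70421547, minus strand) encodes cyclin B2 and had 73.3 CPM in 10E IAA and 85.5 and 76.0 in 11D IAA, against 117 and 117 in 10E EtOH and 129 and 120 in 11D EtOH. The groups were well apart, with the highest IAA library below the lowest EtOH library by more than the spread within either. With IAA the log2 level of Ccnb2 changed by -0.65 ± 0.09 (FDR 2.15e-05), a percent change of -36.5.

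Ccnb1 (chromosome 13, positions 100778650 to 100786570, minus strand) encodes cyclin B1, the main CDK1 partner at mitotic entry. It had 165 CPM in 10E IAA and 178 and 190 in 11D IAA, against 213 and 274 in 10E EtOH and 265 and 294 in 11D EtOH. All IAA libraries lay below all EtOH libraries, the first 10E EtOH library being the nearest. The log2 fold change was -0.59 ± 0.10 (FDR 9.77e-05), a percent change of -33.7. No exon of Ccnb1 or Ccnb2 is shared with another gene. These 2 were the members of the set that stayed called as lower with library totals alone (-0.26 for Ccnb1, FDR 0.0227; -0.32 for Ccnb2, FDR 0.00755), where Ccnd1 (-0.29, FDR 0.0828) and Ccnd3 (-0.20, FDR 0.0750) were not. Without the 2 EtOH libraries rich in CT010467.1, the calls of Ccnb1, Ccnb2, Ccnd1, Ccnd3 and Ccne2 held, while those of Ccna2 (FDR 0.0733) and Cdkn1b (FDR 0.0527) did not.

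Cdkn1b (chromosome 6, positions 134920401 to 134925513, plus strand) encodes p27 and also shares no exon. It had 29.6 CPM in 10E IAA and 56.1 and 51.9 in 11D IAA, against 39.03 and 51.8 in 10E EtOH and 60.1 and 62.5 in 11D EtOH. The IAA library was the lower one within 10E and both were lower within 11D, but across lines the groups overlapped, with 11D above 10E under either treatment. The log2 fold change was -0.35 ± 0.13 (FDR 0.0294). The call was lost in 3 of the 7 fits without 1 library, by DESeq2 (FDR 0.0658) and with library totals (-0.02), and without the 10E IAA library the value was -0.19.

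Line by line, the changes had the same sign in 10E and 11D for 8 of the 9 genes, Ccnd2 being the exception. In 10E, 1 of the 9 was called higher and 5 lower, against a background of 35.4% of genes called, 17.1% as higher and 18.3% as lower. In 11D it was 1 higher and 4 lower, against 46.2%, with 23.1% in each direction. Ccne2 rose in both, by 1.31 ± 0.26 on the log2 scale in 10E (FDR 0.00185) and 1.04 ± 0.22 in 11D (FDR 0.0016). Ccnb2 fell in both (log2 fold changes of -0.69 in 10E and -0.63 in 11D), as did Ccnb1 (-0.57 and -0.61), Ccnd3 (-0.64 and -0.47) and Ccnd1 (-0.73 and -0.56), each with 10E before 11D. Cdkn1b was called in 10E (-0.63 ± 0.20, FDR 0.0258) and not in 11D (-0.19 ± 0.15, FDR 0.314), and Ccna2 in neither (-0.26 and -0.27). Without the second 10E EtOH library, Ccnd1 (-0.25), Ccnb1 (-0.36) and Cdkn1b (-0.39) were no longer called in 10E. In 11D the call was lost for Ccnd1 in 4 of the 7 fits that left out 1 library, and for Ccnd3 without the first 11D EtOH library (-0.31) or the second 11D IAA library (-0.33).

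The difference between the lines was tested itself, as an interaction. None of the 9 genes passed, with 0 at an unadjusted p under 0.05, and the value for Cdkn1b was 0.44 ± 0.25, 11D minus 10E (unadjusted p 0.103). Over all genes 0 passed by edgeR (background 0%), 872 had an unadjusted p under 0.05, and DESeq2 called 1. Line 10E has 1 IAA library, which limits this test, and that library is assumed to vary like the others.

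**Figure D3:**
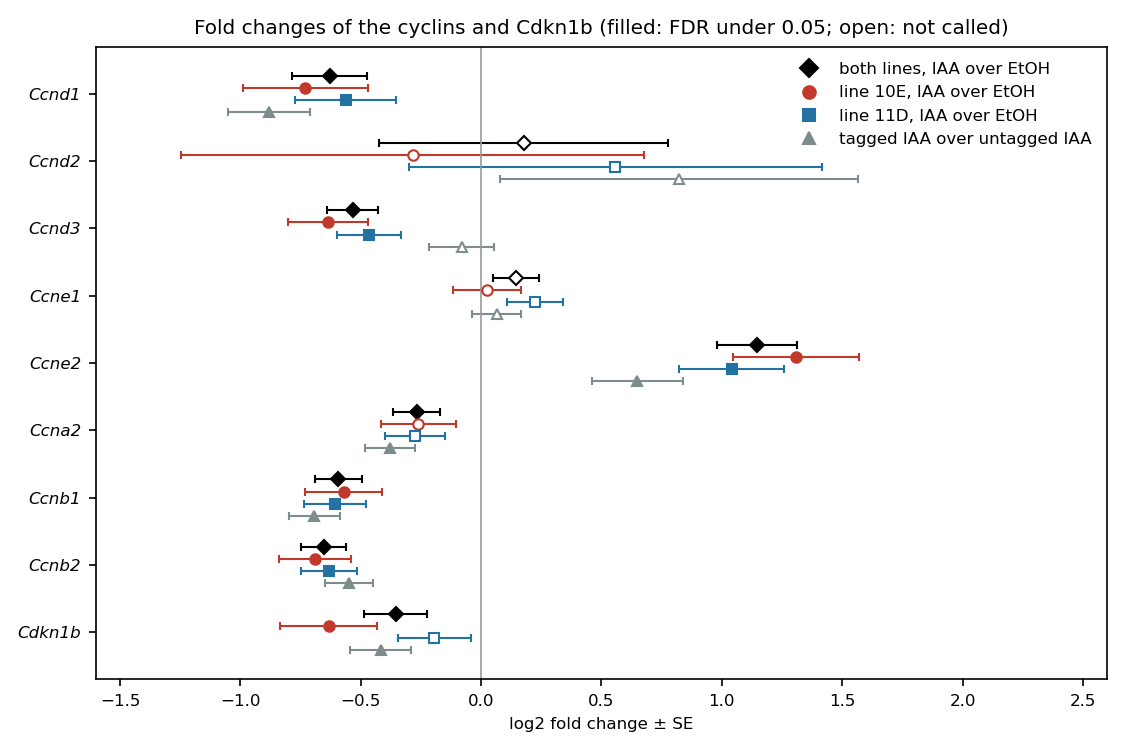
log2 fold changes (horizontal axis) with their SE for each gene, for both lines together, for each line and for tagged IAA over untagged IAA; filled symbols have an FDR under 0.05. Ccne1 and Ccne2 lie to the right of 0 in all 4 comparisons. Ccnd1, Ccnd3, Ccna2, Ccnb1, Ccnb2 and Cdkn1b lie to the left in all 4, and Ccnd2 lies on both sides. Only Ccne2, Ccnd1, Ccnb1 and Ccnb2 are filled in all 4.

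Tagged IAA cells were next set against untagged IAA cells, which received the same compound without a degron on SPT16. This comparison reuses the tagged IAA libraries, so it is not a second experiment. The untagged libraries carry the code TIR1 in the count table and were matched to their group by their replicate numbers and lack of EtOH, and the tag and the line cannot be told apart in it. Of the 9 genes 1 was called higher (Ccne2) and 5 lower (Ccnd1, Ccna2, Ccnb1, Ccnb2 and Cdkn1b), against a background of 55.7% of 17439 genes called, 27.9% as higher and 27.8% as lower. Groups did not overlap for 4 genes on the lower side (Ccnd1, Ccna2, Ccnb1 and Ccnb2; 29.9% of all genes) and for Ccne2 on the higher side (31.6%).

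Ccnb1 had 165 to 190 CPM in tagged IAA and 294, 278 and 275 in untagged IAA (-0.69 ± 0.11, FDR 5.85e-05). Ccnb2 had 73.3 to 85.5 CPM in tagged IAA and 112, 104 and 120 in untagged IAA (-0.55 ± 0.10, FDR 0.000311). Ccnd1 had 48.7 to 64.3 CPM in tagged IAA and 101, 107 and 107 in untagged IAA (-0.88 ± 0.17, FDR 0.000429). The untagged libraries lay close together for Ccnd1 and Ccnb1, and less so for Ccnb2 (SD 8.05 CPM, against 6.43 in tagged IAA). For these 3 genes all untagged libraries lay above the tagged IAA libraries. Ccna2, at 222, 222 and 211 CPM in untagged IAA, was also lower in tagged IAA (-0.38 ± 0.10, FDR 0.0061).

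Ccne2 was higher in tagged IAA than in the untagged libraries, which had 22.4, 18.2 and 15.2 CPM (0.65 ± 0.19, FDR 0.00916). The call was lost without the third untagged library (0.51, FDR 0.0521). Ccnd3 had 173, 222 and 248 CPM in untagged IAA, a range that covers the tagged IAA libraries (-0.08 ± 0.13, FDR 0.629). Ccne1 had 96.0, 99.3 and 113 CPM there (0.07 ± 0.10, FDR 0.609), and Ccnd2 1, 2 and 11 reads (0.82 ± 0.74, FDR 0.361). Cdkn1b had 54.8, 53.1 and 52.2 CPM in untagged IAA, a narrow range that lay between the 11D libraries and far above the 10E library of tagged IAA. Its value of -0.42 ± 0.13 (FDR 0.0119) turned to 0.035 (FDR 0.841) without the 10E IAA library. With library totals the calls of Ccna2, Ccnb2 and Cdkn1b were lost (-0.08, -0.25 and -0.12) and Ccne1 was called (0.36, FDR 0.00747).

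Tagged EtOH cells differ from untagged IAA cells in the tag, the line and the compound, which cannot be told apart, and this comparison shares libraries with both of the others. Here 3.57% of 17439 genes were called, 1.27% as higher and 2.29% as lower, and of the 9 genes Ccnd3 alone, higher in tagged EtOH (264 to 333 CPM) than in untagged IAA (173 to 248 CPM; 0.46 ± 0.12, FDR 0.0482). It was also the gene of the 9 whose groups did not overlap, which 6.73% of genes did on the higher side and 8.07% on the lower. That call was lost in 8 of the 10 fits that left out 1 library. Among genes with more than a few reads, Ccne2 had the largest value in size, -0.53 ± 0.18, and was not called (FDR 0.101). Its levels were 9.17 to 15.3 CPM in tagged EtOH and 15.2 to 22.4 in untagged IAA. Ccnd1 stood at -0.24 ± 0.15 (FDR 0.346), and at -0.48 (FDR 0.0295) without the second 10E EtOH library. The values of the other genes with over 25 CPM lay between -0.12 for Ccna2 and 0.10 for Ccnb2.

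Per length, the 9 genes kept a similar order in the 3 groups. Levels were divided by the length of all exons of a gene, and the CPM per kb that follow are group means. In tagged IAA, Ccnb2 was highest at 51.1, followed by Ccnb1 at 42.1, Ccna2 at 41.8 and Ccne1 at 40.2, which overlapped one another, then Ccnd3 at 23.7, Ccnd1 at 11.7, Cdkn1b at 10.1 and Ccne2 at 8.50, of which Ccnd1 overlapped Cdkn1b and Cdkn1b overlapped Ccne2. In tagged EtOH the order was the same, with Ccnb2 at 78.9, Ccnb1 at 62.0, Ccna2 at 49.3, Ccne1 at 37.1, Ccnd3 at 33.9, Ccnd1 at 19.2, Cdkn1b at 11.7 and Ccne2 at 3.66, and the overlapping neighbours were Ccnb1 with Ccna2 and Ccne1 with Ccnd3. In untagged IAA, Ccnb2 stood at 73.2, Ccnb1 at 67.0, Ccna2 at 53.5, Ccne1 at 38.7, Ccnd3 at 24.4, Ccnd1 at 22.3, Cdkn1b at 11.7 and Ccne2 at 5.33, with overlap between Ccnb2 and Ccnb1 and between Ccnd3 and Ccnd1. Ccnd2 was last in each group, at 0.114, 0.134 and 0.0564 CPM per kb.

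The order depends on the length used. With the longest transcript in place of all exons, Ccnb1 stood at 71.4 CPM per kb in tagged IAA and 105 in tagged EtOH and Ccnd3 at 53.9 and 77.0. Ccnd3 then stood beside Ccne1 in tagged IAA (53.5), and above Ccne1 (49.4) and Ccna2 (68.0) in tagged EtOH.

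Within the E type class, Ccne2 made up 15.9% of the CPM per kb in 10E IAA and 21.6% and 15.0% in 11D IAA, against 6.28% and 7.98% in 10E EtOH and 11.03% and 11.01% in 11D EtOH. The IAA libraries were all above the EtOH libraries, while the third untagged library, at 9.26%, lay among the EtOH libraries and the other 2 were at 15.1% and 12.3%. The summed E type CPM, not per length, was 135 to 138 in tagged IAA, 103 to 122 in tagged EtOH and 118 to 129 in untagged IAA. Ccne1 was the larger part of the class in every library.

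Within the D type class the tagged groups overlapped, and the untagged libraries lay above them in the share of Ccnd1, the nearest by a narrow margin. Ccnd1 made up 32.9% ± 5.17 in tagged IAA (SD, n = 3) and 35.5% ± 5.94 in tagged EtOH (n = 4), with overlapping ranges, and 47.9% ± 3.81 in untagged IAA (n = 3), where each of the 3 libraries was above every tagged library (44.5% or more, against 44.3% or less). Ccnd3 made up nearly all of the rest. In the B type class, Ccnb2 made up 54.8% ± 2.24 in tagged IAA, 56.1% ± 3.29 in tagged EtOH and 52.2% ± 2.10 in untagged IAA, and the ranges overlapped. Which B type cyclin was the larger part depends on the length, since with the longest transcript Ccnb2 made up 41.7%, 43.1% and 39.2% in the same groups. The summed B type CPM was 239 to 266 in tagged IAA, 330 to 414 in tagged EtOH and 382 to 406 in untagged IAA, and the D type sum 252 to 283, 330 to 449 and 274 to 356 in the same groups. These shares are descriptions, with no test.

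**Figure D4:**
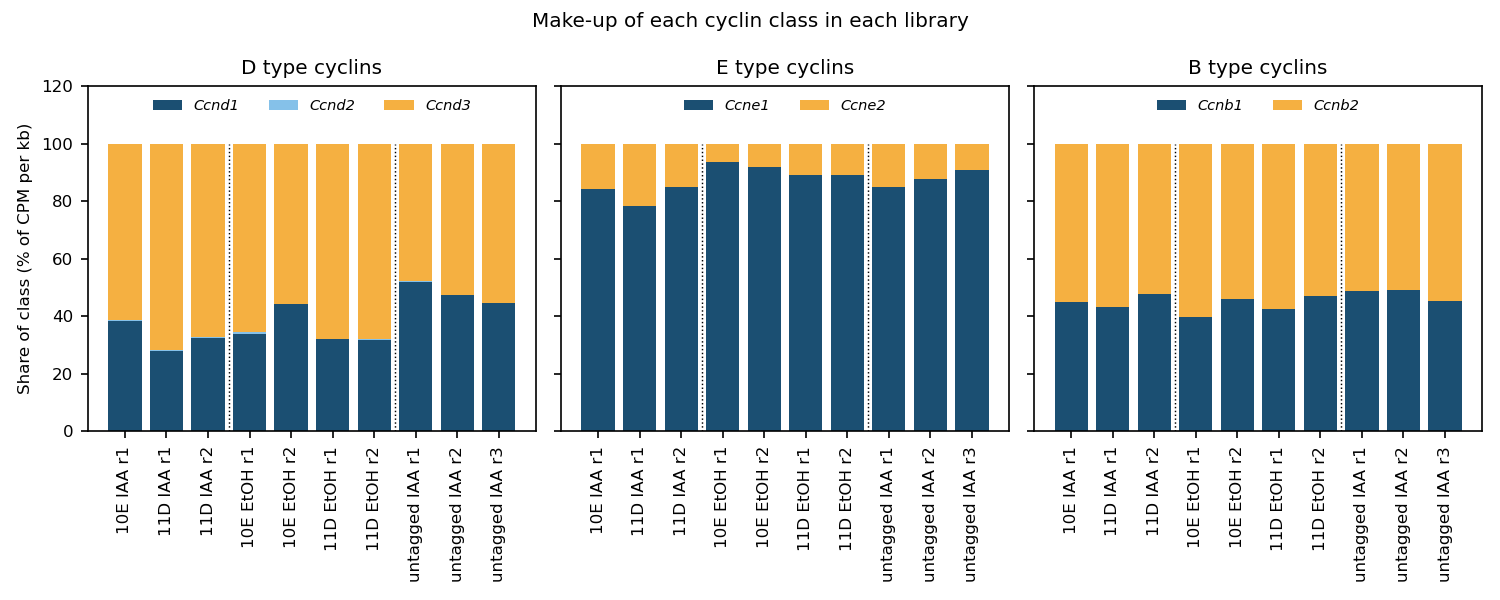
Share of each gene in the CPM per kb of its class (vertical axis, %), 1 bar per library, with dotted lines between tagged IAA, tagged EtOH and untagged IAA. Ccne2 takes 15.0% to 21.6% of the E type class in tagged IAA and 6.28% to 11.03% in tagged EtOH, while the B type bars differ little between groups.

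Genes that act with the cyclins were read from lists of the pathway in the same comparison of tagged IAA with tagged EtOH. Among 15 genes of the CDK4/6, RB and E2F list, 4 rose and 9 fell, with a median log2 fold change of -0.35, beside 0.03 over all genes tested. The counts of this and the other lists are read against the 29.3% of all genes that were called higher and the 28.1% called lower. Rb1 and Rbl2, which encode RB and its relative p130, rose by 1.61 ± 0.15 and 0.82 ± 0.15. Rbl1, another gene of that family, fell (-0.81 ± 0.12), as did E2f2 (-2.04 ± 0.19) and Cdk6 (-0.87 ± 0.11). E2f2 encodes an activating E2F and Cdk6 a partner of the D type cyclins, whose other partner Cdk4 fell by 0.62 on the log2 scale. Of 12 genes of the kinase list, for kinases and the proteins that activate or modify them, 6 fell and 6 did not pass (median -0.25). Those that fell include Cdk1, the kinase of the B type cyclins (-0.76 ± 0.10; 108 CPM in IAA, 183 in EtOH), Cks1b, a small CDK subunit (-0.75 ± 0.11), and Cdk2, the kinase of the E type cyclins (-0.22 ± 0.09, FDR 0.0458; 0.12 with library totals).

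Of the 8 CDK inhibitors, Cdkn1b among them, 3 rose and 1 fell, with a median of 0.32, and 3 of 8 is near the share of all genes called higher. Cdkn1c, which encodes p57, had 14.4 ± 6.95 CPM in IAA and 1.61 ± 1.11 in EtOH (SD, n = 3 and 4; 3.08 ± 0.33 log2, FDR 1.02e-06). Cdkn2b, which encodes the CDK4 and CDK6 inhibitor p15, had 11.1 ± 2.79 CPM in IAA and 2.05 ± 0.468 in EtOH (2.36 ± 0.27, FDR 2.13e-06). Cdkn1a, which encodes p21, was the third to rise (0.23 ± 0.08, FDR 0.0262), and Cdkn1b, of the same family as p21 and p57, was the one that fell.

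Of 31 genes for the turnover of cyclins and p27, 5 rose and 17 fell (median -0.30). The list holds ubiquitin ligase subunits and partners, those of SCF and APC/C among them, and deubiquitinases. Anapc7 (0.89 ± 0.09) and Skp1a (0.37 ± 0.11) rose, and Usp28, a deubiquitinase (-0.68 ± 0.09), and Fzr1, the APC/C activator CDH1 (-0.69 ± 0.10), fell. Among 11 genes of the list for MuvB, B-MYB, FOXM1 and NF-Y, 2 rose and 6 fell (median -0.39). That list also holds the kinase gene Dyrk1a, which fell. Mybl2, which encodes B-MYB, had 383 ± 49.1 CPM in IAA and 828 ± 82.3 in EtOH (-1.12 ± 0.12, FDR 9.02e-07), and Nfya, the DNA-binding subunit of NF-Y, fell by 0.92 on the log2 scale. Foxm1, which works with B-MYB on mitotic genes, and Lin54, the subunit of MuvB that contacts the CHR, rose (0.42 ± 0.09 and 0.45 ± 0.10). Other cyclins, 18 tested, had 6 higher and 5 lower (median 0.15). Ccno, named for cyclin O and known from multiciliated cells, had 9.05 CPM in IAA and 0.585 in EtOH (3.88 ± 0.37), Ccnyl1 rose by 1.20 ± 0.12, and Ccnf (-1.17 ± 0.09), an SCF substrate receptor, and Ccni (-1.18 ± 0.10) fell.

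These lists do not all keep their split under another scaling. With library totals the median of all genes is 0.36, and 43.1% of all genes were called higher and 15.9% lower. The counts of higher and lower were then 4 and 6 in the RB and E2F list, 1 and 3 among kinases and 11 and 7 for turnover. They were 3 and 3 in the MuvB, B-MYB, FOXM1 and NF-Y list and 10 and 4 for other cyclins. Of the inhibitors, 6 were higher. Each list median stayed on the same side of the median over all genes. Exons of Rb1, Rbl2, Cdk4, Cdk6, Cdk2, Cdkn1c, Cdkn1a, Fzr1, Foxm1, Ccnyl1 and Ccnf overlap those of another gene, so their values are uncertain to that extent.

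**Figure D5:**
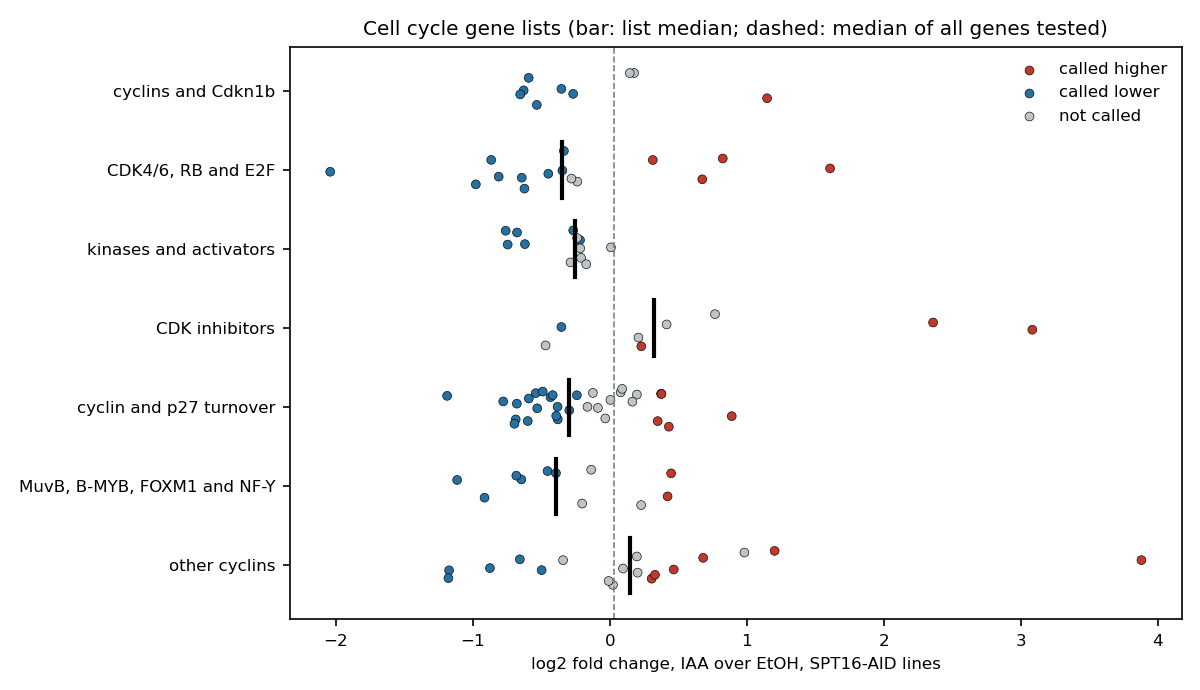
log2 fold changes of tagged IAA over tagged EtOH (horizontal axis) for the genes of each list, 1 point a gene, in red where called higher, blue where called lower and grey where not called; black bars mark list medians and the dashed line the median of all genes tested (0.03). Points of the RB and E2F, kinase, turnover and MuvB, B-MYB, FOXM1 and NF-Y lists lie mostly to the left. Their medians are between -0.25 and -0.39, while the inhibitors have a median of 0.32.

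The genes whose levels ran most like those of 5 of the genes were found by Pearson's r of log2 CPM over the 10 libraries, among 9233 genes with a mean of at least 10 CPM, as a description with no p. They included Psip1 (0.995) for Ccnb1, Atp1b3 (0.98) and Lsm14a (0.97) for Ccna2, Trpm1 (0.98) for Ccnd1, Timp1 (0.98) and Selenof (0.94) for Cdkn1b and Ddx56 (0.92) and Nme7 (0.88) for Ccne1. The 10 libraries share the 3 groups and 2 lines, which such a correlation includes.

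The authors' deposited table of IAA against EtOH lists the 9 genes with 1 higher and 4 lower at an adjusted p under 0.05, where 18.8% of its 21210 genes with an adjusted p are higher and 17.8% lower. In the authors' deposited table Ccne2 stands at 1.16 (adjusted p 1.45e-06), Ccnb2 at -0.62, Ccnb1 at -0.52, Ccnd1 at -0.55 and Ccnd3 at -0.48. Ccna2 (-0.19) and Cdkn1b (-0.28), with an adjusted p of 0.171 and 0.168, do not pass in the authors' deposited table.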

How the data were processed

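The authors deposited 1 table of raw read counts per gene symbol, not normalized, for 10 libraries, where the labels list 11 samples. STAR, deepTools and the build mm10 come from the submitters' processing notes. No read counter, annotation or strand setting is stated, and the kit was directional per the labels' protocol. Columns coded TIR1 were taken as the untagged line, the only code with an IAA replicate 3 and no EtOH, and 10E and 11D could not be tied to clone numbers. The authors' deposited table of IAA against EtOH, with DESeq2 columns per the file headers, gives a mean signal, a log2 fold change with its SE, a Wald score and p-values, and was copied, not recomputed.

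Counts were filtered with filterByExpr, scaled with TMM factors and tested with edgeR 4.0.16 in R 4.3.3 (quasi-likelihood F test, FDR under 0.05). Each SE was taken as |log2 fold change| over the root of its F value. For IAA against EtOH the 7 tagged libraries were fitted with a line term, and comparisons with untagged cells used all 10, with the 2 lines averaged. DESeq2 1.42.0, other scalings, no filter, a replicate block and leaving out each library were alternatives. Total counts of 3100127 to 13510163 set the precision. The fit of IAA against EtOH was tested on simulated data with few changed genes, as many up as down, and no line effect. That simulation cannot check the scaling, since most genes were left unchanged, and the other comparisons were not simulated. Lengths and overlaps come from GENCODE M21, which holds 96.4% of the symbols. The gene models' mm10 build is that of GRCm38. Named genes were all 9 members, for each list the called genes of smallest FDR, at most 2 a direction, list genes whose role a member's result refers to, and the 2 nearest patterns of 5 members, of which some are not reported here. Rbl1 was named beside Rb1 and Rbl2. The members and lists were chosen with earlier results of these data known. No 2 replicates agreed within counting noise (chi-square over its degrees of freedom 2.84 to 25.5).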

Additional observations from a re-analysis of the deposited data

Results flagged for a closer look

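The share of Ccnd1 in the CPM per kb of the D type cyclins was 44.3% in the second 10E EtOH library, against 31.8% to 33.8% in the other 3 tagged EtOH libraries. The gap to the nearest of them is 0.84 of the whole range of the group, above the limit of 0.829 for 4 samples. This was 1 of 16 groups looked at, and chance alone picks out about 1 in 20. The same library holds the highest Ccnd1 level of all, 134 CPM, and 2.64% of its counts fell on CT010467.1, against 0.129% in the first 10E EtOH library. The first 11D EtOH library had more, 4.27%, with a Ccnd1 share of 32.0%, among the other libraries of the group.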

How the results depend on the processing

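Ccne2, Ccnb1 and Ccnb2 kept their direction and their call for IAA against EtOH over both lines under every alternative run. With library totals, Ccnd1 (-0.29), Ccnd3 (-0.20) and Cdkn1b (-0.022) were no longer called, Ccna2 was 0.067, of opposite sign (FDR 0.537), and Ccne1 was called at 0.48; 2 of the 9 genes were then higher and 2 lower, where 7713 of all genes (43.1%) were higher and 2851 (15.9%) lower. Ccna2 lost its call with median-of-ratios factors (-0.23), DESeq2 (-0.23), no line term (-0.24), without the second 10E and first 11D EtOH libraries, the highest in CT010467.1 (-0.22, an alternative chosen after seeing the data) and in 10E (-0.26) or 11D (-0.27) alone. Cdkn1b lost it with the first 2 of these (-0.32 each), no line term (-0.22), without those 2 libraries (-0.31) and in 11D alone (-0.19). In 10E alone 3064 genes were higher and 3269 lower.

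Leaving out 1 library at a time gave -0.76 to -0.44 for Ccnd1, -0.34 to -0.19 for Ccna2 and -0.42 to -0.19 for Cdkn1b. In these fits 3 to 6 of the 9 genes were lower, as were 4016 to 5085 of the 16194 to 18314 genes tested. The 3 came without the 10E IAA library, where 4070 of 16548 genes were lower. The count lower was 2 to 6 within 10E (2 without the second 10E EtOH library) and 2 to 5 within 11D (2 without the first 11D EtOH or the second 11D IAA library). With library totals 2 were higher in each line (28.8% of all genes in 10E, 34.1% in 11D), with 0 lower in 10E (8.17%) and 2 in 11D (13.4%), and DESeq2 gave 3 lower in 10E (12.7%). Against untagged IAA, library totals gave 2 higher and 2 lower in tagged IAA (39.6% and 17.2% of all genes). Leaving out single libraries gave 0 to 1 higher there, with 0 without the third untagged library, where 4200 of 17066 genes were higher. Over these fits 3913 to 4939 of 16371 to 18099 genes were higher. Cdkn1b ran from -0.44 to 0.035, with 0.035 without the 10E IAA library. For tagged EtOH over untagged IAA, leaving out single libraries gave 0 to 1 higher and 0 to 1 lower, the lower one being Ccnd1. Of all genes, 17 to 509 were higher and 66 to 546 lower in these fits.

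Deviations of same-numbered libraries had an r of -0.218 (10E EtOH and 11D EtOH), -0.145 (10E EtOH and 11D IAA) and 0.26 (11D EtOH and 11D IAA). Only the last sets both treatments of a line side by side, so these values cannot decide whether the numbers mark pairs. With the replicate block, Cdkn1b was -0.32 (FDR 0.0507), and 3 of the 9 genes were lower in 10E, where 3118 of 17904 genes were. In tagged against untagged IAA 0 of the 9 were then higher, against 3872 of 17439 genes, and Ccne2 was 0.48 (FDR 0.0926). Depth limits Ccnd2, with 1 to 21 reads a library.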
